A study of Mus musculus with 27 samples.

Results

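Cxcl1, also called KC or Gro1, encodes a small secreted chemokine that attracts neutrophils. Its level was followed in cells that derive from transferred donor monocytes and were sorted out of the small intestine. It is 1 gene of a nCounter panel of 67, of which 57 had values, and it was taken as its own row of the table of barcode counts in all 27 samples. Donor monocytes of C57BL/6 background, which the paper calls WT, were transferred into C57BL/6 CCR2-/- recipients. For such transfers its methods name WT or CX3CR1gfp/+ donors, and the sample titles do not say which. The recipients lack a receptor that monocytes use to exit bone marrow. The paper recovered more donor cells from them than from WT recipients, and names free niches or a competitive advantage as possible reasons. It also reports more endogenous Ly6C+ monocytes in the manipulated intestine. In manipulated recipients the small intestine had been handled surgically 1 day before the transfer, which inflames the gut. Non-manipulated recipients had no surgery. Samples were taken at days 1, 2 and 5 after transfer from 5, 4 and 4 manipulated recipients and from 5, 5 and 4 non-manipulated recipients, 1 sample per mouse. Recipient ages are not given in the sources used here. Manipulated mice had also received anaesthesia, an abdominal incision and an analgesic in the drinking water, and in these samples such effects cannot be told apart from the inflammation. The paper reports that sham surgery, an incision without handling of the gut, did not inflame it. Sham recipients are not among these samples.

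Cxcl1 is one of the ELR+ CXC chemokines, a family named after a short motif in front of its paired cysteines. These chemokines bind the receptor CXCR2 on neutrophils and draw them out of the blood. Macrophages, epithelium and stromal cells make Cxcl1 within hours of meeting bacterial products, IL-1 or TNF, mostly through the transcription factor NF-kB. In the intestine, macrophages in the muscle layer are known to release chemokines and cytokines after surgical handling, and neutrophils and monocytes then enter the wall.

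In GRCm38.p6 the RefSeq gene Cxcl1 (gene ID 14825) lies on the plus strand at chr5:90891245-90893121. The panel's probe covered 100 bases, positions 561 to 660 of the transcript NM_008176. Close by lie the other ELR+ members Cxcl2, which begins 10.8 kb after Cxcl1, and Cxcl15, Cxcl3, Ppbp and Cxcl5, between 88.2 and 129.6 kb before it. None of these was among the genes analysed here, so Cxcl1 stands for the 6 listed ELR+ chemokines alone. Cxcl9 and Cxcl10, chemokines of another group that attract T cells, lie over 1428 kb further along the same chromosome and were measured. The 150 bases in front of the gene (RefSeq, GRCm38.p6, chr5:90891095-90891244, plus strand) are shown because they hold a 10-base NF-kB-type site, written in capitals, 71 to 62 bases before the start.
Cxcl1 promoter: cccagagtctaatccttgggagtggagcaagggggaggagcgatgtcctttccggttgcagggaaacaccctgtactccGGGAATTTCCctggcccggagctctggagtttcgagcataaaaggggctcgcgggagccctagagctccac
The letters GGGAATTTCC, searched on both strands, occurred in 24 of 27025 mouse promoter windows of 300 bases (0.0888%). Of the 37 tested genes whose promoter was matched, Cxcl1 alone held them. The wider NF-kB consensus occurred in 8.18% of all windows and in 7 of the 37, namely Cxcl1, Cxcl10, Il6, Nfkb2, Tgfb1, Tlr2 and VEGFa. These matches describe letters and were not tested for binding.

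A nCounter lane counts single barcoded probes. Here each lane held 100 sorted cells whose cDNA had gone through 16 cycles of gene-specific pre-amplification, so that counts are not molecules of the cell and levels of different genes cannot be ranked. Total counts of the tested genes ran between 597997 and 1347007 per lane with a median of 1077366, and between 54 and 57 genes exceeded the background of a lane, the mean plus 2 SD of its 5 negative controls (14.9 to 49.8 counts). Levels are given as scaled counts, which are counts divided by the lane's geometric mean of Actb, Gapdh and Rpl19 and brought back to the size of counts by the average of this mean over lanes. Of the markers of monocytes and macrophages 9 of 11 listed names had values, where Emr1 and Adgre1 are names of the same gene. The summed level of those with values ran between 132989 and 422061 scaled counts in the manipulated samples and between 222439 and 387398 in the non-manipulated ones, and Fcgr1, which encodes the monocyte and macrophage marker CD64, was read in every group. The sum adds genes whose levels cannot be ranked and hides changes of single markers. At day 1 the log2 fold change between arms was -3.70 for Cx3cr1, -1.73 for Ccr2, -1.10 for Csf1r and 1.00 for Cd14 (edgeR, each adjusted p below 0.05). At days 2 and 5 it was -1.57 and -1.64 for Ccr2 and -5.60 and -5.86 for Ly6c1, all past the same threshold. Ly6c1 was near background in manipulated day 5 samples (35.1 to 57.6 scaled counts). Cx3cr1 passed at day 2 (-2.16) and Cd14 at day 5 (1.06), and no other measured marker of this list passed at these days. Per the study's gating, the donor cells carried a congenic marker and were Ly6G-, SiglecF-, CD11b+, CD11c lo/int and CD64+, a gate that leaves out neutrophils, eosinophils and cells of the recipient. No marker of neutrophils, eosinophils, epithelium, stroma or lymphocytes was among the genes analysed, and of the dendritic cell markers Ccr7 alone had values, so what passed this gate could not be checked on such markers. More cells with Cxcl1 and more Cxcl1 RNA per cell cannot be told apart in these samples.

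Cxcl1 was higher in the donor cells of every manipulated recipient than in those of any non-manipulated recipient. The 13 manipulated samples ran between 1746 and 6429 scaled counts with a median of 2507, and the 14 non-manipulated samples between 129 and 678 with a median of 374. The lowest manipulated mouse thus stood 2.58-fold above the highest non-manipulated one. Over the 3 days at once, this separation was seen for Cxcl1 and for none of the other tested genes (1 of 57, 1.75%). All Cxcl1 counts lay above background, by 51.7- to 219-fold in manipulated and by 3.57- to 20.8-fold in non-manipulated samples.

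**Figure D1:**
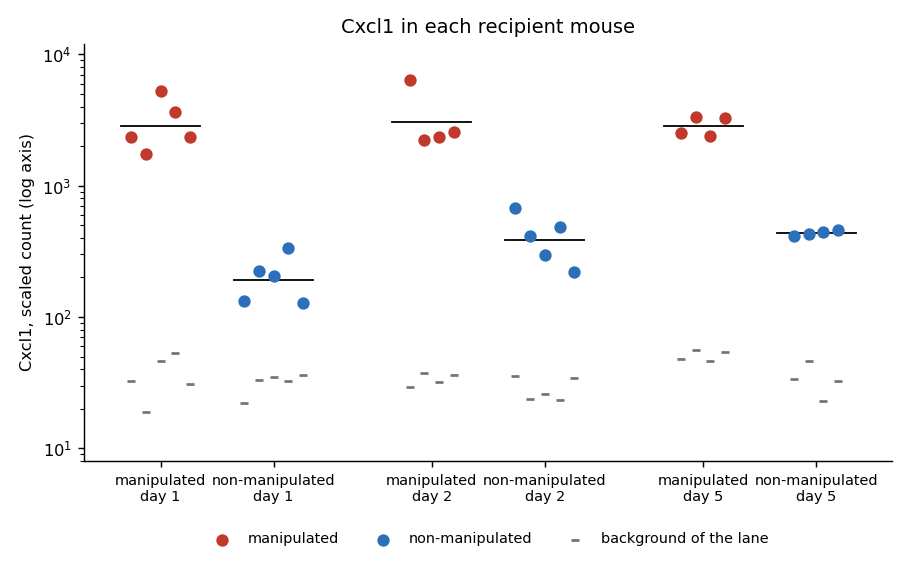
Scaled count of Cxcl1 (vertical log axis) in each of the 27 recipients, by group; each point is 1 mouse, black lines are geometric means, and grey dashes are the background of the same lane on the same scale. All 13 manipulated samples lie between 1746 and 6429 and all 14 non-manipulated samples between 129 and 678.

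The separation was also seen on most other scales. Unscaled counts ran between 1543 and 7635 in manipulated and between 122 and 613 in non-manipulated samples. The scores normalized by the authors ran between 2175 and 14011 in manipulated samples and between 150 and 923 in non-manipulated samples. Per 1000 counts of Actb, Cxcl1 had between 15.1 and 53.5 counts in manipulated and between 0.909 and 4.60 in non-manipulated samples, and per 1000 counts of Gapdh between 22.9 and 71.4 in manipulated and between 1.61 and 6.30 in non-manipulated samples. It was lost on Rpl19 alone, where the lowest manipulated sample had 569.8 and the highest non-manipulated sample 630.1 counts per 1000. That non-manipulated sample was mouse 1 of day 2, whose lane had 784 counts of Rpl19, and day 2 was the only day at which the arms overlapped on this scale. Il1a also separated the arms when Actb was left out of the housekeeping mean or when Gapdh alone was used, and Tgfb1 did so when counts were scaled by the total of the tested genes.

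At day 1 after transfer, Cxcl1 stood at 2336, 1746, 5290, 3622 and 2333 scaled counts in the 5 manipulated recipients. The 5 non-manipulated recipients of day 1 had 131, 224, 207, 338 and 129. The groups did not overlap, and non-manipulated mice 5 and 1 had the lowest Cxcl1 levels of the series. Cxcl1 averaged 3066 ± 1420 in manipulated and 206 ± 85.4 in non-manipulated recipients (SD, n = 5 each). The log2 fold change was 3.90 ± 0.45 (SE, edgeR adjusted p = 1.83e-07), a 14.9-fold difference with a 95% interval of 7.80 to 28.5. It was the 6th highest log2 fold change and the 2nd lowest p-value of the 57 genes, at a day when 24 of them passed (42.1%) and 14 of these were higher in manipulated recipients (24.6%).

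At day 2, the 4 manipulated recipients had 6429, 2218, 2358 and 2557 scaled counts of Cxcl1. The 5 non-manipulated recipients had 678, 411, 297, 483 and 222. Manipulated mouse 1 stood apart from its group at the highest level of the series, and the other 3 lay close together and still above every non-manipulated mouse. The means were 3390 ± 2030 in manipulated (SD, n = 4) and 418 ± 177 in non-manipulated recipients (SD, n = 5). The log2 fold change was 3.02 ± 0.45 (edgeR adjusted p = 2.6e-05), or 8.11-fold with a 95% interval of 4.28 to 15.4. Cxcl1 had the lowest p-value of all tested genes at this day, of which 18 passed (31.6%), 8 of them higher (14%). Without manipulated mouse 1 the log2 fold change was 2.51 and without non-manipulated mouse 1 it was 3.26, and the call held in each case.

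At day 5, Cxcl1 had 2507, 3349, 2375 and 3274 scaled counts in the 4 manipulated recipients. The 4 non-manipulated recipients had 416, 427, 440 and 459. Again no value of one group reached into the other, and the non-manipulated values lay within a narrow band. The means were 2876 ± 506 in manipulated and 436 ± 18.5 in non-manipulated recipients (SD, n = 4 each). The log2 fold change was 2.72 ± 0.48 (edgeR adjusted p = 0.000199), or 6.60-fold with a 95% interval of 3.32 to 13.1. At this day 14 genes passed (24.6%), 10 of them higher (17.5%). The median log2 fold change of all 57 genes was -0.08 at day 1, -0.05 at day 2 and 0.59 at day 5. Relative to this median gene, Cxcl1 was 3.97 higher on the log2 scale at day 1, 3.07 at day 2 and 2.14 at day 5.

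Taken 1 day at a time, separation of the arms was common among the tested genes. It was seen for 19 of 57 genes at day 1 (33.3%), for 16 at day 2 (28.1%) and for 9 at day 5 (15.8%). An exact two-sided permutation test of the mean log2 level of Cxcl1, with 1 added to the scaled count, gave p = 0.00794 at day 1, p = 0.0159 at day 2 and p = 0.0286 at day 5. Each is the smallest value that the test, which doubles the smaller tail, can give at these group sizes. These exact p-values were not adjusted over the genes. The call of each day held under every setting tried, this unadjusted exact test included, and without any single mouse.

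Within the manipulated arm, no difference of Cxcl1 between days passed. The geometric means were 2833 scaled counts at day 1, 3045 at day 2 and 2843 at day 5. The log2 fold changes were 0.15 ± 0.43 for day 2 against day 1 (edgeR adjusted p = 0.857; 95% interval -0.73 to 1.03), -0.09 ± 0.43 for day 5 against day 1 (adjusted p = 0.930; -0.97 to 0.79) and -0.24 ± 0.45 for day 5 against day 2 (adjusted p = 0.732; -1.17 to 0.69). Their signs turned under several settings. The interval of day 2 against day 1 reaches a rise of about 2-fold. Those of day 5 against days 1 and 2 reach a fall of about 2-fold or more. Each reaches less far in the other direction. Between days 5 and 1, 23 of the 57 genes passed in this arm (40.4%), against 1 between days 2 and 1 (1.75%) and 3 between days 5 and 2 (5.26%).

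In the non-manipulated arm, the geometric means of Cxcl1 were 192 scaled counts at day 1, 389 at day 2 and 435 at day 5. The values ran between 129 and 338 at day 1, between 222 and 678 at day 2 and between 416 and 459 at day 5. The log2 fold change was 1.02 ± 0.41 for day 2 against day 1 (edgeR adjusted p = 0.0995) and 1.08 ± 0.43 for day 5 against day 1 (adjusted p = 0.066), so that neither passed. Of all tested genes 8 passed between days 2 and 1 (14%) and 11 between days 5 and 1 (19.3%). With TMM scaling, edgeR's usual scaling factor, the values were 1.35 (adjusted p = 0.0168) and 1.29 (adjusted p = 0.034), and both passed. Without non-manipulated day 1 mouse 4, the highest of its group, the first of them also passed at 1.28 (adjusted p = 0.0464). Day 5 against day 2 gave 0.06 ± 0.43 (adjusted p = 0.958; 95% interval -0.82 to 0.94), a comparison in which 7 genes passed (12.3%).

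Between days, the manipulation effect on Cxcl1 differed by -0.88 ± 0.59 on the log2 scale for day 2 minus day 1 (edgeR interaction term, adjusted p = 0.431). For day 5 minus day 1 it differed by -1.17 ± 0.61 (adjusted p = 0.185; 95% interval of the difference -2.43 to 0.08). The difference between days 5 and 2 was -0.30 ± 0.62 (adjusted p = 0.807). None passed, and with the size factors of DESeq2 the difference between days 5 and 1 did, at -1.45 (adjusted p = 0.0491). Of all tested genes, 4 passed for day 2 minus day 1 (7.02%), 11 for day 5 minus day 1 (19.3%) and 0 for day 5 minus day 2 (0%) by edgeR, where 7 had an unadjusted p below 0.05 and where DESeq2 called 1 gene and limma 0. By geometric mean, the order of the groups was manipulated day 2 (3045), manipulated day 5 (2843), manipulated day 1 (2833), non-manipulated day 5 (435), non-manipulated day 2 (389) and non-manipulated day 1 (192). Of the 5 pairs of neighbours in this order, manipulated day 1 and non-manipulated day 5 alone passed, with a difference of 2.81 ± 0.47 (adjusted p = 3.04e-05). Non-manipulated days 2 and 1 differed by 1.02 ± 0.41 with a 95% interval of 0.18 to 1.86, which leaves out 0, and did not pass after adjustment on the housekeeping scale.

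**Figure D2:**
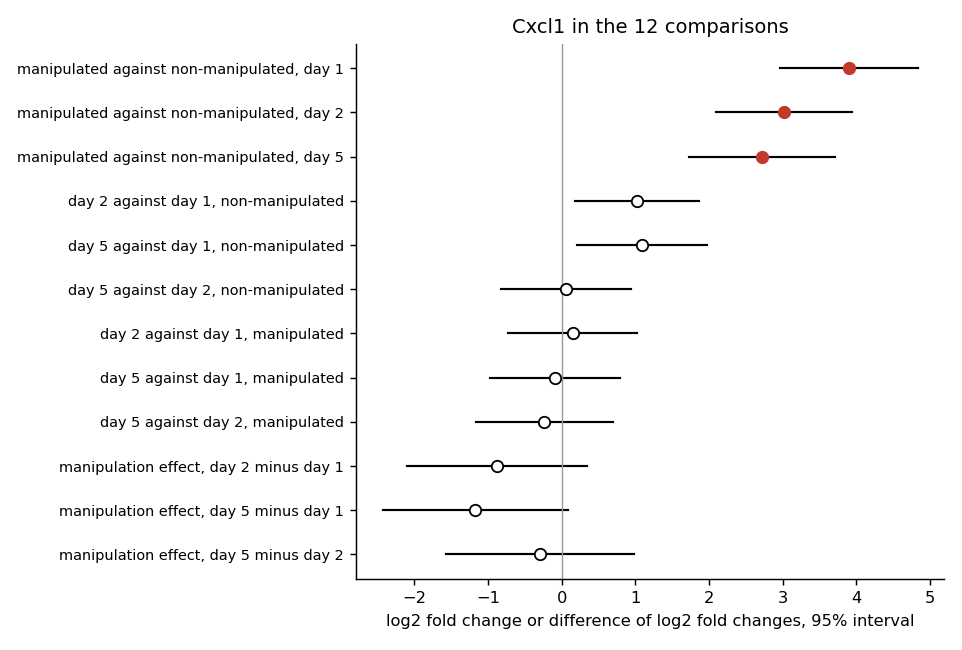
The 12 comparisons of Cxcl1, with the log2 fold change (or, in the lowest 3 rows, the difference between log2 fold changes) on the horizontal axis and its unadjusted 95% interval as a line; filled points passed an adjusted p of 0.05. The 3 comparisons of manipulated with non-manipulated recipients, at 3.90, 3.02 and 2.72, are the filled ones.

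Cxcl1 was among the steadier genes of the panel within a group. Its SD within groups was 0.545 on the log2 scale, the 8th lowest of 57, where the median gene had 0.886. On the housekeeping scale the coefficient of variation was 46.3%, 59.9% and 17.6% at days 1, 2 and 5 in manipulated recipients. In non-manipulated recipients it was 41.6%, 42.3% and 4.24%. The last of these rests on 4 mice and on the scale, since the same mice varied by 28% on the authors' normalized scores and by 26.3% per count of Gapdh. The lanes of mice 3 and 4 carried a multiplier in the deposited table that no other lane carried, and were looked at apart. Within them the log2 fold changes of the manipulation were 4.03, 2.66 and 2.65 at days 1, 2 and 5, and within the other lanes 3.73, 3.31 and 2.80.

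Beside Cxcl1, 7 chemokines were measured, and they did not move as a group. Of the 4 CC chemokines, which act mainly on monocytes and lymphocytes, Ccl2 and Ccl7 passed as higher at day 1, Ccl2 and Ccl7 as higher and Ccl22 as lower at day 2, and Ccl2 and Ccl8 as higher at day 5. The median log2 fold change of the 4 was 1.46, 1.08 and 1.43 at days 1, 2 and 5. Of the CXC chemokines Cxcl9, Cxcl10 and Cxcl11, which interferons induce and T cells follow, none was higher at any day. Cxcl9 and Cxcl11 passed as lower at days 1 and 2, and Cxcl9 at day 5, with medians of the 3 genes of -2.28, -3.38 and -1.53. Cxcl1 was thus the only measured CXC chemokine that passed as higher in manipulated recipients.

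**Figure D3:**
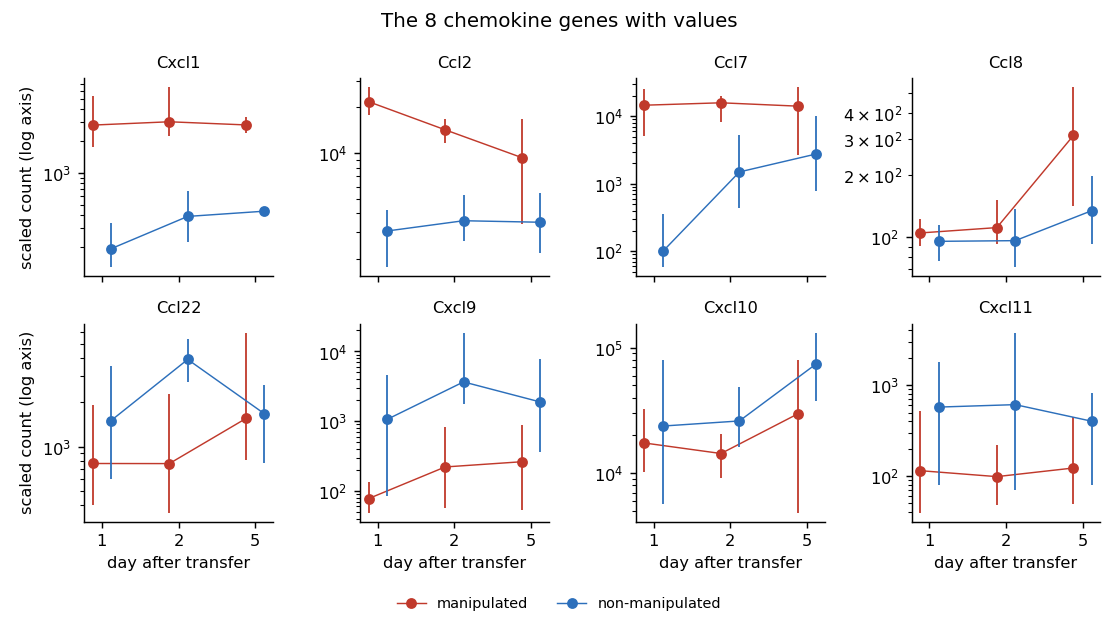
Geometric mean (points) and range (bars) of the scaled counts (log axis) of the 8 chemokine genes with values, by day after transfer, in manipulated and non-manipulated recipients. The ranges of Cxcl1 do not meet at any day, while Cxcl9 and Cxcl11 lie lower in manipulated recipients and Cxcl10 overlaps.

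Ccl2, the ligand of CCR2 that draws monocytes, ran between 17729 and 27096 scaled counts in manipulated and between 1764 and 4184 in non-manipulated recipients at day 1. Its log2 fold changes were 2.80 ± 0.37, 1.97 ± 0.37 and 1.55 ± 0.39 at days 1, 2 and 5 (edgeR adjusted p = 0.00476 at day 5, the weakest of the 3). In the manipulated arm Ccl2 was lower at day 5 than at day 1, with a log2 fold change of -1.04 ± 0.37 (adjusted p = 0.0248), where Cxcl1 had -0.09 ± 0.43. Ccl7, a further CCR2 ligand, had 7.02 ± 0.93 at day 1, 3.03 ± 0.79 at day 2 and 2.12 ± 0.83 at day 5 (adjusted p = 0.0602 at day 5). Its non-manipulated level rose at day 5 relative to day 1, with a log2 fold change of 5.08 ± 0.86 (adjusted p = 7.07e-05). Ccl8, a monocyte chemoattractant of the same gene group, passed at day 5 alone (1.32 ± 0.34, adjusted p = 0.00476). Ccl22, which attracts regulatory T cells, was lower at day 2 (-2.04 ± 0.69, adjusted p = 0.0279). Cxcl9 was lower at each day, with log2 fold changes of -4.57 ± 1.07, -4.15 ± 1.15 and -3.04 ± 1.11. Cxcl11 had -2.28 ± 0.91, -3.38 ± 1.05 and -1.53 ± 1.00, the first 2 of which passed. Cxcl10 had -0.83 ± 0.60, -0.92 ± 0.64 and -0.84 ± 0.67, and it passed at no day. Beside lane backgrounds of 14.9 to 49.8 counts, levels were low for Cxcl9 (48.7 to 132) and Cxcl11 (39.6 to 521) in manipulated day 1 samples. They were also low for Ccl7 in non-manipulated day 1 (58.2 to 361) and Ccl8 in non-manipulated day 5 samples (93.2 to 199). The sizes of changes that rest on such levels are less certain. For all chemokine changes that passed, the sign was the same under 8 scalings, the housekeeping mean included. Of these, Cxcl9 at day 5 passed in 5 of the 8, Cxcl11 at day 1 in 6, and Cxcl11 and Ccl22 at day 2 and Ccl8 at day 5 in 7, while Ccl7 at day 5 passed in 2.

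Of the 57 genes, 3 passed as higher at all 3 days, namely Cxcl1, Ccl2 and Il1a (5.26%). Cd14 and Arg1 passed as higher at days 1 and 5 and just missed the threshold at day 2 (edgeR adjusted p = 0.0507 and 0.0512). The paper, at a p cutoff of 0.05, also counts Cd14, Arg1 and Il23a as higher at all 3 days. Here Il23a did not pass at day 2, with a log2 fold change of -0.05 ± 1.00. Il1a encodes IL-1α, a cytokine that cells release on injury and that induces Cxcl1 in many cell types. Its log2 fold changes were 4.07 ± 0.42, 1.42 ± 0.39 and 2.68 ± 0.44 at days 1, 2 and 5, beside 3.90, 3.02 and 2.72 for Cxcl1. The count of Cxcl1 was also divided by that of Ccl2 or Il1a in the same lane, a ratio that no scaling can move and that was added after the values were known. Per 1000 counts of Ccl2 there were 98.5 to 206 counts of Cxcl1 in manipulated and 35.7 to 80.7 in non-manipulated recipients at day 1, and the log2 ratio was 1.04 ± 0.28 higher (exact permutation test, two-sided, p = 0.00794, 0.0476 after adjustment over the 6 ratios). At days 2 and 5 the ratio was 0.98 ± 0.55 and 1.29 ± 0.53 higher, with overlapping groups and adjusted p of 0.238 and 0.171 in the same exact test. Without any 1 mouse the difference at day 1 was 0.84 to 1.14, each time at the smallest p that the exact test allows with a group of 4 and one of 5 (0.0159), which is 0.0952 after adjustment. Against Il1a the log2 ratio differed by -0.24 ± 0.43 at day 1, by 1.27 ± 0.56 at day 2 and by 0.12 ± 0.40 at day 5, with adjusted p of 0.733, 0.143 and 0.743 in the same exact test. Of the 6 ratios, that to Ccl2 at day 1 alone passed.

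**Figure D4:**
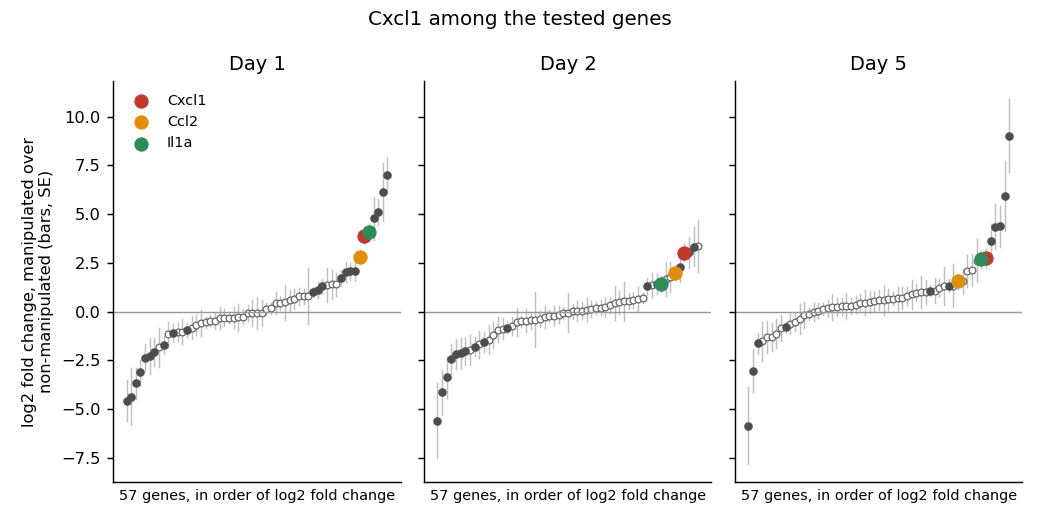
Log2 fold changes of the 57 tested genes between manipulated and non-manipulated recipients at each day, in rising order (vertical axis, bars are SE; filled points passed an adjusted p of 0.05). Cxcl1 lies at 3.90, 3.02 and 2.72 at days 1, 2 and 5 and is marked with Ccl2 and Il1a, the other genes that passed as higher at all 3 days.

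Of the 5 listed cytokines known to induce Cxcl1, 4 had values. All 4, Il1a, Il1b, Tnf and Il6, were higher at day 1, where 24.6% of all tested genes were, with a median log2 fold change of 3.07 against -0.08 over all genes. At days 2 and 5, 1 of the 4 passed as higher, which was Il1a, where 14% and 17.5% of all tested genes did. Il6 had 5.12 ± 0.67 at day 1, 1.37 ± 0.60 at day 2 and 1.06 ± 0.64 at day 5. Within the manipulated arm Il6 was lower at day 5 than at day 1, with a log2 fold change of -4.20 ± 0.70 (edgeR adjusted p = 0.000176), where Cxcl1 had -0.09 ± 0.43. Il6 had 33.8 to 61.7 scaled counts in non-manipulated day 1 and 30.5 to 247 in manipulated day 5 samples. Such levels reach down to the lane background of 14.9 to 49.8 counts, so the sizes of these Il6 changes are uncertain. Tnf, the tumour necrosis factor gene, had 2.08 ± 0.52, 0.23 ± 0.53 and 0.62 ± 0.56, and Il1b, the gene of IL-1β, had 1.30 ± 0.39, 0.53 ± 0.40 and 0.16 ± 0.43 at days 1, 2 and 5.

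Of 7 measured genes for sensing bacteria and for the signal behind it, Cd14, Tlr4 and Trem1 passed as higher and Card9 as lower at day 1, when 42.1% of all tested genes passed in either direction. Cd14 and Tlr4 encode the receptor pair for lipopolysaccharide, Trem1 an amplifier of that response and Card9 an adaptor of fungal and NOD2 signals. At day 2 only Trem1 passed (31.6% of all tested genes) and at day 5 only Cd14 (24.6% of all), both as higher. Cd14 just missed the threshold at day 2 (edgeR adjusted p = 0.0507). Tlr4 passed in 5 and Card9 in 4 of the 8 scalings at day 1. Of 9 transcription factor genes, Nfkb1, Nfkb2 and Relb of the NF-kB family and Cebpb among them, none passed as higher at any day. Irf4, a transcription factor of lymphocytes and myeloid cells, was lower at day 2. The transcript level of NF-kB genes says nothing of how much NF-kB is in the nucleus. No receptor of Cxcl1 was among the genes analysed.

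Over all 27 samples, the gene most like Cxcl1 was Il1a (Pearson r = 0.90, Spearman rho = 0.82, on log2 of the scaled count plus 1), followed by Ccl2 (r = 0.85, rho = 0.70) and Ccl7 (r = 0.82, rho = 0.83). The least alike were Ccr2 (r = -0.72, rho = -0.73), the gene of the receptor for Ccl2, then Tgfb1 (r = -0.71, rho = -0.76), a regulatory cytokine, and Cxcl9 (r = -0.64, rho = -0.54). The median r over the 56 other genes was 0.04. These values describe the separation of the arms, share lanes and scale, and depend on the latter, since on the authors' normalized scores Tgfb1 had r = -0.08 and Ccr2 r = -0.34. Once each group's mean was taken away, r was 0.26 for Il1a, 0.16 for Ccl2 and -0.09 for Ccl7. The deviations most like those of Cxcl1 were then VEGFa (r = 0.64), a growth factor for vessels, Relb (r = 0.57), an NF-kB subunit, and Irf5 (r = 0.56), a transcription factor of inflammatory macrophages. By arm, these deviations gave VEGFa 0.64 over the 13 manipulated and 0.66 over the 14 non-manipulated samples. VEGFa was picked as the highest over these same samples, so its values by arm are no independent check. For Il1a they gave -0.21 in manipulated and 0.56 in non-manipulated samples, for Ccl2 0.36 in manipulated and -0.10 in non-manipulated samples, and for Ccl7 0.48 in manipulated and -0.59 in non-manipulated samples. Over the 6 group means VEGFa had r = 0.85, the 5th highest.

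**Figure D5:**
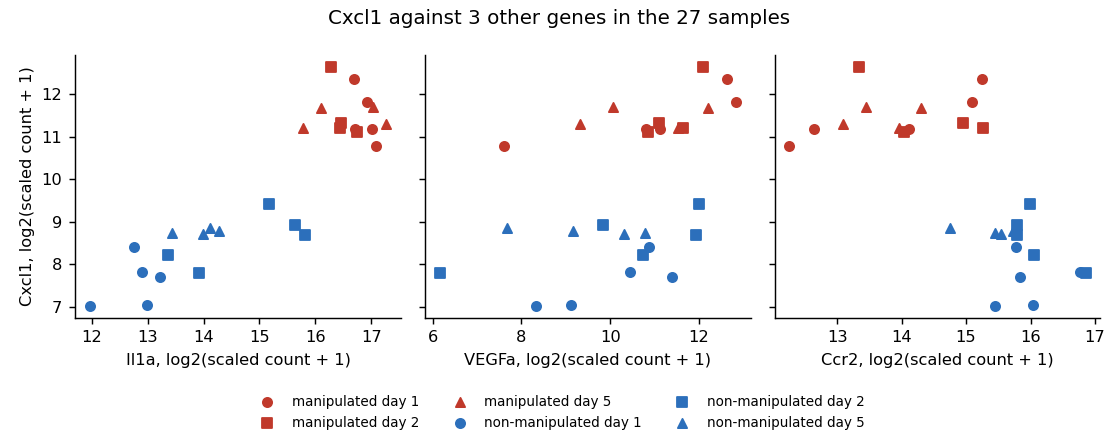
Cxcl1 (vertical axis) against Il1a, VEGFa and Ccr2 (horizontal axes), all as log2 of the scaled count plus 1, in the 27 samples, coloured by arm and shaped by day. Il1a follows the arms (r = 0.90), Ccr2 runs against them (r = -0.72), and VEGFa has r = 0.49 overall and 0.64 once group means are removed.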

How the data were processed

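In 27 samples, 100 donor cells each, cDNA was pre-amplified over 16 cycles and hybridized to nCounter probes. Samples were grouped by title and by the day after transfer. The members, the gene lists and the tests were chosen with earlier results of these data known. The mice came from separate recipients, though the labels do not say which were handled together.

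The authors deposited raw barcode counts, without normalization, for 14 lanes, and for manipulated day 1 mouse 5 counts in which every value was even and which were divided by 2. The 12 lanes of mice 3 and 4 were deposited as values that are whole counts times 1 constant (a tolerance of 0.001), read as estimated counts and divided by it to whole numbers. The reason for these multipliers is not given in the sources used here. The second table holds, per the labels, scores that the authors had scaled to housekeeping genes, each of which equals the raw value times 1 factor per sample (0.407 to 3.34). It served as an alternative. Of 67 panel genes, 10 were blank, and of 5 housekeeping genes 3 had values. Columns left without a sample numbered 0.

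edgeR 4.0.16 (R 4.3.3) was fitted to the counts of 57 genes, as a quasi-likelihood F test, two-sided, with 6 group means and the housekeeping geometric mean as library size (21 residual degrees of freedom, common biological coefficient of variation 0.685). P-values were adjusted by Benjamini-Hochberg over the 57 genes, and 0.05 was the threshold. SEs are the log2 fold change over the square root of F, and 95% intervals are per comparison. The fit was tested on simulated data whose spread was set below the common spread of these data. That test therefore does not show how the fit performs at the real spread. Alternatives were other scalings, a count filter, background subtraction, DESeq2 1.42.0, limma 3.58.1 on log2 values (pseudocounts 1 and 50), blocks for mouse number and lane multiplier, and leaving out each mouse. Exact tests used scipy 1.17.1, and those of the Cxcl1 level were not adjusted over the genes.

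Same-numbered mice deviated together in the comparison of manipulated day 2 with day 1, where all 4 pairs had r between 0.37 and 0.57 over the genes, so that the block is the paired reading there. This pairing comes from the data and not from the labels. In the 8 other comparisons of 2 groups at least 1 pair fell below 0.1.

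Genes were named by a rule: Cxcl1, the measured chemokines, Il1a, Il1b, Tnf and Il6, list members by counts, and the 3 genes most and least like Cxcl1 over 27 samples and the 3 most alike after the group means were removed. Promoter and gene positions are from RefSeq (GRCm38.p6). Pre-amplified counts are not independent molecules, and the number of cells and of lanes limits their precision. The result of a further listed gene is not reported here.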

Additional observations from a re-analysis of the deposited data

Results flagged for a closer look

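Among the 6 groups, 1 sample stood far from the others of its group in Cxcl1, namely manipulated day 2 mouse 1 at 6429 scaled counts. Its distance to the nearest other mouse was 0.92 of the range of the group. Chance flags about 1 in 20 groups. In this lane Cxcl1 was 1.44 higher on the log2 scale than the mean of the other 3 mice, the 8th largest such excess of the 57 genes, and 21 genes had their highest and 26 their lowest level of the group in it. Without this mouse the manipulation effect at day 2 was 2.51 on the log2 scale and passed. Why it stood apart was not tested.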

How the results depend on the processing

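The higher Cxcl1 of manipulated recipients passed at each of the 3 days under all 20 settings, with log2 fold changes of 3.56 to 4.66 at day 1, 2.66 to 3.49 at day 2 and 2.42 to 3.08 at day 5. Leaving out 1 mouse gave 3.61 to 4.15, 2.51 to 3.26 and 2.64 to 2.80. Of all tested genes, 1 separated the arms over the 3 days at once in the main and 7 other scalings. It was 2 with the total of the tested genes, without Actb and per Gapdh, and 0 per Rpl19. Comparisons between days were less settled. In non-manipulated recipients, day 2 against day 1 passed with TMM scaling (1.35) and with DESeq2 size factors (1.08), and ran between 0.78 and 1.28 without 1 mouse (past the threshold without day 1 mouse 4). Day 5 against day 1 passed with TMM (1.29), with DESeq2 size factors (1.25 as scaling, edgeR test), with the DESeq2 Wald test (1.08) and with limma on log2 of scaled counts plus 1 (1.17). Between days 5 and 1 the manipulation effect differed past the threshold with DESeq2 size factors (-1.45).

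Small differences that never passed turned their sign. For day 5 against day 2 in non-manipulated recipients this was so with TMM (-0.061), the total of the tested genes (-0.31), no Actb (-0.022), the authors' factor (-0.35), the lanes other than those of mice 3 and 4 (-0.051) and limma on the normalized scores (-0.23), with -0.10 to 0.30 over mice left out. For day 2 against day 1 in manipulated recipients it was so with the authors' factor (-0.36), the lanes of mice 3 and 4 (-0.86) and limma on the normalized scores (-0.076), with -0.37 to 0.43 over mice left out. For day 5 against day 1 in manipulated recipients it was so without Actb (0.17), in the other lanes (0.45) and with limma on scaled counts plus 1 (0.0050) or plus 50 (0.0035), with -0.24 to 0.20 over mice left out. For day 5 against day 2 in manipulated recipients it was so in the lanes of mice 3 and 4 (0.20), with -0.39 to 0.27 over mice left out. The difference of the effect between days 5 and 2 ran between -0.54 and 0.22 over mice left out. The cause was not tested.

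With the replicate block (mouse number), no call on Cxcl1 changed. The effects at days 1, 2 and 5 were 3.92, 2.90 and 2.73, the paired value of day 2 against day 1 in manipulated recipients was -0.038, and day 5 against day 2 in non-manipulated recipients was -0.021. The ratio of Cxcl1 to Ccl2 at day 1 lost its call whichever mouse was left out (0.84 to 1.14), since the smaller groups cannot reach the threshold after adjustment. The ratio to Il1a at day 5 ran between -0.10 and 0.42.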
